A study of Homo sapiens with 8 samples.

Results

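Replication origins in the first 65 Mb of human chromosome 5 were examined in HCT116 cells that lack a subunit of the origin recognition complex (ORC). The region holds the whole short arm (5p) and the first part of the long arm (5q). Its members are the origins, given as rows of the deposited read count tables, whose midpoint lies on chromosome 5 before 65 Mb. There were 604 such origins in the table of WT and ORC1KO cells, of 1768 on chromosome 5 and 42421 in all. The table of WT and ORC2KO cells held 550 of 1777 on the chromosome and 44447 in all, and that of WT and ORC5KO cells held 564 of 1892 and 46722. The region was selected on the log2 folds of ORC1KO over WT, so those folds are given as a description with no test.

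The lines were HCT116 p53−/− colon cancer epithelial cells (WT) and ORC1KO, ORC2KO and ORC5KO cells made from them with CRISPR–Cas9. All 4 lines therefore lack p53. Each line was profiled in 2 biological replicates, 8 samples in all, by SNS-seq, which sequences short nascent DNA strands after size selection and lambda exonuclease digestion. The deposited tables merge the replicates into 1 read count per line and origin, and each table sets WT against one knockout line, so the 3 tables share the WT reads and no spread between replicates can be given. Nothing in the sources used here says whether a knockout line is a single clone.

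In human cells, ORC is a complex of several subunits that binds DNA in G1 and helps to load the MCM2–7 helicase, the step known as licensing. Only some licensed sites fire in a given S phase. The short RNA-primed strands made at those sites resist lambda exonuclease, and their pile-up marks an origin. SNS-seq counts depend on how often a site fires in the population and on how many copies of that DNA the cells carry.

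The sequences at both ends of the range of folds are shown by 4 windows, each of 200 bases around the midpoint of an origin, on hg38 and its plus strand. Runs of 3 or more G or C are in capitals. The first pair are the highest origins in ORC1KO cells by the ranking rule given below and the second pair lie among the lowest. The first lay between genes beside CDH6 (a cadherin) at chr5:31364240-31364439, the second in an intron of SLC9A3 (a sodium–proton exchanger) at chr5:517555-517754, the third in an intron of MAP3K1 (a kinase of the stress-activated cascade) at chr5:56835461-56835660, and the fourth between genes beside SHISAL2B at chr5:64678939-64679138.
CDH6 neighbour: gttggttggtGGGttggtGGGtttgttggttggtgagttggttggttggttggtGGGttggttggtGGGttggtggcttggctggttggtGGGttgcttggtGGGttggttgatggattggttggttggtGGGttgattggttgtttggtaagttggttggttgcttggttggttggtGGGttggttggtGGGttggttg
SLC9A3 intron: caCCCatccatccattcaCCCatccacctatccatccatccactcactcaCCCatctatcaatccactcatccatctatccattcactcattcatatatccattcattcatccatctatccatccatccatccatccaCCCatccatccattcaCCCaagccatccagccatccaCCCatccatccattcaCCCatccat
MAP3K1 intron: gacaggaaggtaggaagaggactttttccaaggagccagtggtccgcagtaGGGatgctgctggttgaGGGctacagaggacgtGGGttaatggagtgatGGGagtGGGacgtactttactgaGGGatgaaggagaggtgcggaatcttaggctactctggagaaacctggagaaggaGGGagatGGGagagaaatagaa
SHISAL2B neighbour: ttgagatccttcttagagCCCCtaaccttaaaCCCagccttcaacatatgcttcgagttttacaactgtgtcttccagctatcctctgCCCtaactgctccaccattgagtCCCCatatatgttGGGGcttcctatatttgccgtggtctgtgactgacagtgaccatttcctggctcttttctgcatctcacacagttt
The first window is a tandem repeat in which the word gttg occurs 29 times, and its bases are almost all G (102) or T (88). In the second, the word ccat occurs 25 times. The most frequent word of 4 bases occurs 9 times in the MAP3K1 window and 5 times in the SHISAL2B window. These windows do not stand for all origins with high or low folds. By the same count the high origin beside NKD2 named below reached 12 and the low one in ENSG00000288936 reached 10. Windows in which over 50% of bases equalled the base 4 positions on made up 18 of the 133 origins up in ORC1KO cells. They made up 2 of the 40 origins down, 31 of all 604 and 50 of the 1164 in the rest of chromosome 5. Such windows were thus more common among the origins up, though most origins up had none. The median share of equal bases was 30.6% in the origins up, 29.8% in the origins down and 29.6% in all 604. In the rest of chromosome 5 such windows made up 20 of the 62 origins up, so this was not particular to the region.

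ORC1KO cells differed from WT in blocks along the region. Reads were scaled to all reads of a line in its table (RPM), the fold is RPM in the knockout line over RPM in WT, and folds are given as log2. Over the 604 origins the median log2 fold was 0.26, with quartiles of −0.03 and 0.53, and 438 origins were above 0. Over the 1164 origins in the rest of chromosome 5 it was 0.01, a difference of 0.25. In ORC2KO cells the medians were −0.03 in the region and −0.03 in the rest of the chromosome, and in ORC5KO cells 0.00 and 0.01. The WT and ORC1KO reads summed over the region were 83810 and 101579, a summed log2 fold of 0.22 with a 95% Clopper-Pearson interval of 0.20 to 0.23 that covers counting error only.

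At the 1.5-fold rule of the study, 133 of the 604 origins (22.02%) were up in ORC1KO cells and 40 (6.62%) were down. Over all origins of the main chromosomes the rule called 7.04% up and 3.95% down. In the rest of chromosome 5, 62 origins (5.33%) were up and 40 (3.44%) down. In ORC2KO cells 34 of 550 were up (6.18%) and 14 down (2.55%), against 4.66% and 3.58% of all origins. In ORC5KO cells 18 of 564 were up (3.19%) and 4 down (0.709%), against 2.08% and 0.68% of all origins. The ORC1KO shares were fixed in part by how the region was selected, and nothing is read from them beyond their size. Counts behind one origin were modest, with a median of 104 WT and 124 ORC1KO reads, and the 95% interval of a single log2 fold reached about 0.40 to either side.

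**Figure D1:**
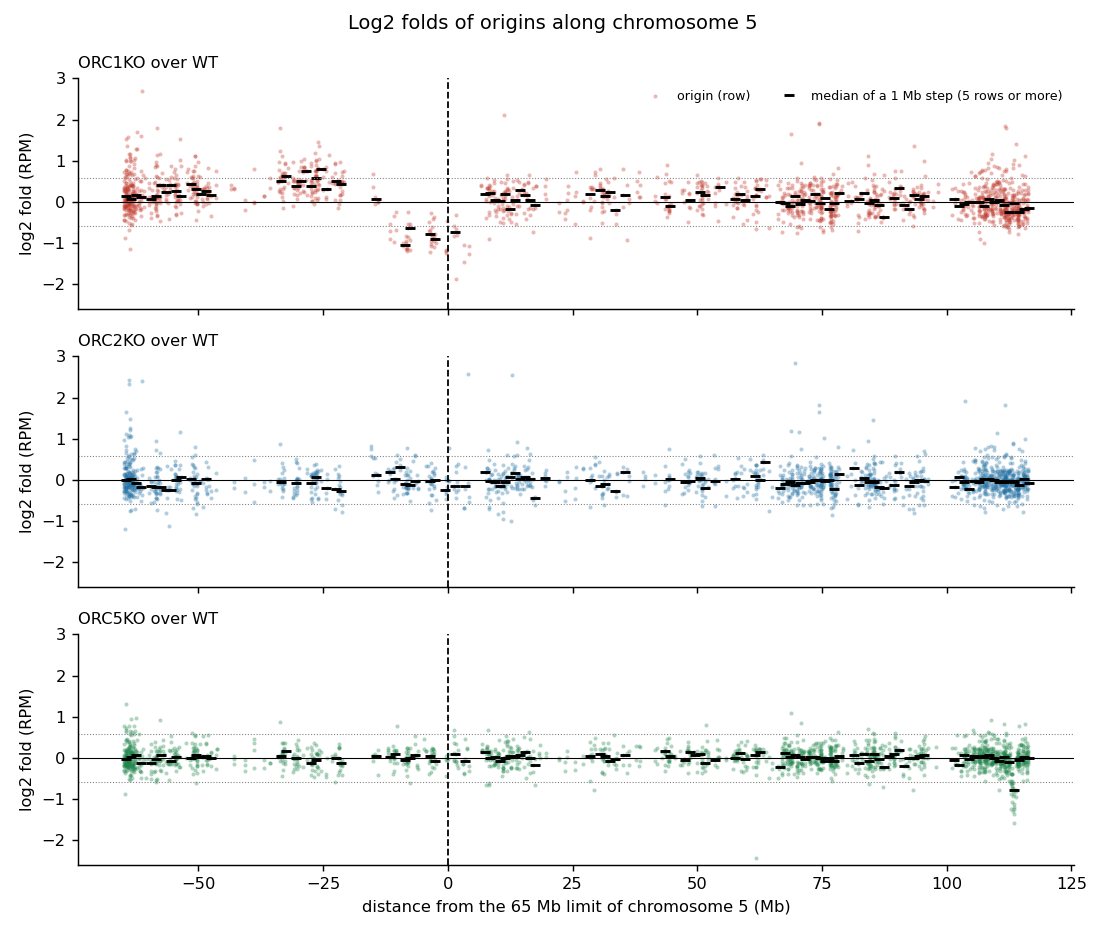
Log2 fold in RPM of each origin (points) and the median of each 1 Mb step with 5 or more origins (bars) against the distance from the 65 Mb limit in Mb, for 3 knockout lines over WT. The dashed line is the limit and the dotted lines mark 1.5-fold. ORC1KO points sit above 0 over most of the region and below 0 on both sides of the limit, while ORC2KO and ORC5KO points stay around 0 there.

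Steps of 1 Mb located the shifts. In ORC1KO cells 32 steps of the region held 5 or more origins, and 17 of these had a median above 0.25 and 4 a median below −0.25. Across all chromosomes 10.1% of such steps were above and 2.13% below. The highest step of the region began at 39 Mb, with a median of 0.81 over 10 origins, and the lowest at 56 Mb, with −1.06 over 8 origins. In ORC2KO cells 1 of 31 steps was above 0.25 and 2 were below −0.25, against 2.25% and 4.18% of all steps. In ORC5KO cells none of 29 steps passed either limit, against 0.202% above and 1.01% below over all steps, and the medians ran from −0.12 to 0.17.

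A segmentation of the ORC1KO folds along the whole chromosome, with at least 20 origins to a segment, placed 3 boundaries and gave 4 segments. The first ran from the short-arm end to 29.4 Mb (distal 5p, 396 origins, median 0.19). The second ran from there to 50.04 Mb (proximal 5p, 156 origins, median 0.50, or 1.42-fold). Its last 2 origins, at 50.03 and 50.04 Mb, lay inside the longest stretch of the chromosome without a gene (45.9 to 50.4 Mb), taken here as the gap at the centromere, so the name holds for the 154 origins before that gap. The third ran from 50.3 to 69.2 Mb, and the last from 71.6 Mb to the end of the chromosome (rest of 5q, 1154 origins, median 0.02). The third segment opened with 4 origins between 50.3 and 51.0 Mb with log2 folds of −0.05 to 0.13. After their values were seen they were set apart, which leaves a low stretch of 58 origins from 53.5 to 69.2 Mb. Of these, 48 lie before the 65 Mb limit and 10 after it, so the limit cuts through the stretch. In ORC2KO cells the segmentation placed no boundary on chromosome 5. In ORC5KO cells it set off only a block of 32 origins from 177.8 to 179 Mb, outside the region, with a median of −0.76.

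The low stretch was the sharpest feature. All 58 of its origins had a log2 fold below 0 in ORC1KO cells, and 46 were down by 1.5-fold or more, with none up. The median was −0.85, which is 0.554-fold, with quartiles of −1.07 and −0.62. The 95% counting interval lay wholly below 0 at 51 of the 58 origins. Summed over the stretch, 6462 WT reads stood against 3794 ORC1KO reads, a log2 fold of −0.83 (−0.89 to −0.77). The 48 origins before the limit had a median of −0.85 and the 10 after it one of −0.95. The tables hold no reads of input DNA, so less frequent firing and fewer copies of this DNA in ORC1KO cells cannot be told apart, nor can a change in all cells and a change in some of them.

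The other lines did not share this feature in their own tables. In ORC2KO cells 112 origins lay in the same stretch, with a median log2 fold of −0.04, 5 up and 3 down. In ORC5KO cells there were 111, with a median of 0.02, 2 up and 1 down. These sets are unlike in make-up. Peaks of the knockout line alone made up 56 of the 112 (median 0.12) and 55 of the 111 (median 0.098), against 2 of 58 in the ORC1KO table. At 56 positions where the ORC1KO origin overlapped one in each of the other tables, the medians were −0.87 in ORC1KO, −0.16 in ORC2KO and −0.05 in ORC5KO cells. The ORC1KO value was the lower at all 56 against ORC2KO, by a median of 0.68 on the log2 scale, and at all 56 against ORC5KO, by a median of 0.77. The 3 comparisons share their WT reads. The stretch was drawn on low ORC1KO folds, and all 56 positions were WT peaks with no ORC1KO peak. A lower ORC1KO value there follows in large part from that choice.

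The origins nearest the 65 Mb limit lay inside the low stretch on both sides. Just before it, an origin in an intron of SHISAL2B (chr5:64716547-64717107) had 101 WT and 47 ORC1KO reads, a log2 fold of −1.16 (−1.70 to −0.65). The next, in an intron of SREK1IP1 (chr5:64729297-64729835), had 78 and 59 reads and a log2 fold of −0.46 (−0.98 to 0.04), whose interval includes 0. Just after it, an origin in an intron of ENSG00000251391 (chr5:66305179-66306025) had 143 WT and 99 ORC1KO reads, with −0.59 (−0.98 to −0.21). The following one in the same gene (chr5:66320895-66321773) had 208 and 122 reads, with −0.83 (−1.16 to −0.50). These values did not separate the members just inside the limit from the origins just outside it.

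The edges of the low stretch were not resolved, since the ORC1KO table held no origin over 2.52 Mb at the near edge and 2.40 Mb at the far edge, and the near edge was drawn after the values were seen. The last 2 origins before it, between genes at 106573 and 108258 bp from PARP8, had 191 and 94 WT reads and 198 and 98 ORC1KO reads, with log2 folds of −0.01 and 0.00. The first 2 of the stretch lay just upstream of FST (follistatin, which binds activin), with 148 and 125 WT reads and 95 and 70 ORC1KO reads, at −0.70 (−1.09 to −0.32) and −0.90 (−1.34 to −0.46). At the far end, an origin at CCNB1 (cyclin B1, of mitotic entry) had 97 WT and 48 ORC1KO reads, and one beside CENPH (a centromere protein) had 95 and 41 reads, a log2 fold of −1.27 (−1.84 to −0.73). The next 2 origins, both in introns of MCCC2 at 71.6 Mb, had 71 and 75 WT reads and 96 and 104 ORC1KO reads, at 0.37 (−0.08 to 0.84) and 0.41 (−0.03 to 0.86). Both of these were listed as peaks in ORC1KO cells and not in WT.

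The origins within the low stretch varied among themselves, and every measured fold was below 0. Step medians ran from −1.06 at 56 Mb to −0.62 at 57 Mb. The lowest single origin of the stretch lay past the limit beside MAST4 (a serine/threonine kinase), with 77 WT and 22 ORC1KO reads and a log2 fold of −1.87. The least affected lay beside MIER3, with 86 WT and 76 ORC1KO reads and a log2 fold of −0.24, and its interval reached 0.22. Once the median of the stretch was taken off, 2 of the 58 origins stood 1.5-fold above it and 2 stood 1.5-fold below it. The spread within the stretch, an interquartile range of 0.45, was close to the 0.46 of the rest of 5q and to the 0.44 of proximal 5p.

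**Figure D2:**
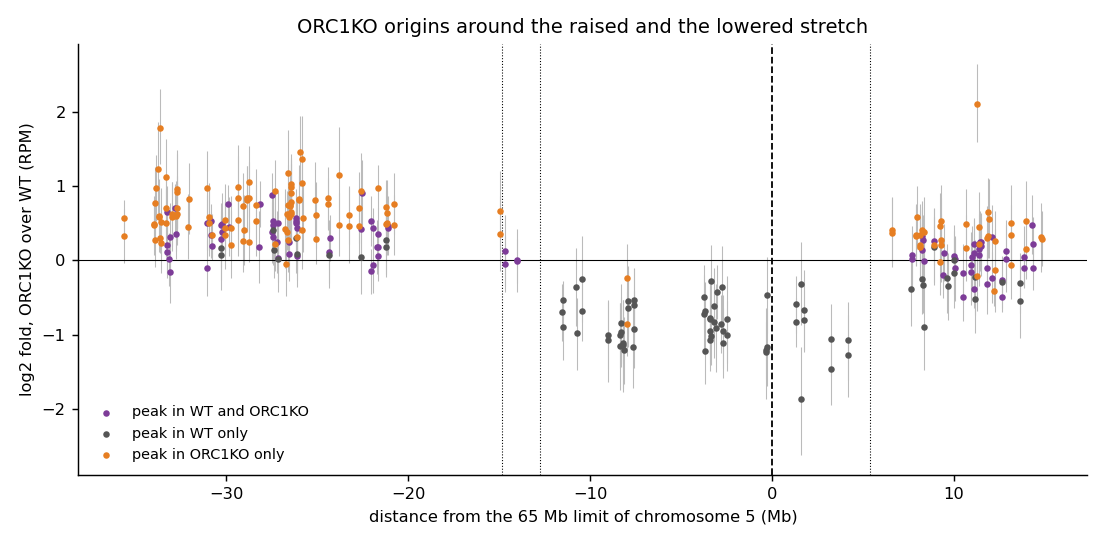
Log2 fold of ORC1KO over WT in RPM, with 95% Clopper-Pearson intervals (counting error), for each origin from proximal 5p to the start of the rest of 5q, against the distance from the 65 Mb limit in Mb. Dotted lines mark the edges of the 4 origins near 50 Mb and of the low stretch. All 58 origins of the low stretch sit below 0, and 56 of them are WT peaks with no ORC1KO peak.

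Proximal 5p was the high part of the region. Of its 156 origins, 151 had a log2 fold above 0 in ORC1KO cells, 62 were up by 1.5-fold or more, and none was down. The 95% interval lay wholly above 0 at 108 of them and wholly below 0 at none. The reads summed to 15541 in WT and 22806 in ORC1KO cells, a log2 fold of 0.49 (0.46 to 0.52). All 11 of its steps with 5 or more origins had a median above 0.25, from 0.30 to 0.81. In ORC2KO cells the 107 origins of the same stretch had a median of −0.02, with 4 up and 3 down. In ORC5KO cells the 108 origins had a median of −0.01, with 1 up and 1 down. Before the gap at the centromere the ORC1KO median was 0.50 over 154 origins with 61 up, the ORC2KO median −0.02 over 102 with 1 up, and the ORC5KO median −0.01 over 106 with 1 up. At 73 shared positions, ORC1KO was the higher at 71 against ORC2KO, by a median of 0.48, and at all 73 against ORC5KO, by a median of 0.45. Proximal 5p was drawn on high ORC1KO folds, so this order follows in part from that choice.

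Distal 5p was shifted less. The median of its 396 origins in ORC1KO cells was 0.19, with 286 above 0, 71 up and 3 down. All 16 of its steps with 5 or more origins had a positive median, from 0.06 to 0.44, and 6 were above 0.25. At 290 shared positions the median was 0.10 in ORC1KO, −0.08 in ORC2KO and −0.03 in ORC5KO cells. The position of the boundary at 29.4 Mb rests on few origins, because only 16 lay between 18 and 30 Mb. On its near side an origin in an intron of LINC02064 had 111 WT and 145 ORC1KO reads (log2 fold 0.33, −0.04 to 0.69), and on its far side the next in the same intron had 242 and 376 reads (0.58, 0.34 to 0.81). With the folds corrected for GC content, this boundary was not placed, and the 2 parts of 5p had medians of 0.22 and 0.40.

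The peak lists give the peaks found in both replicates of a line. They come from the same SNS-seq data as the folds, and the blocks were drawn on the ORC1KO folds. Peak counts by block are therefore a description and no separate support for the blocks. WT had 363 peaks in the region, ORC1KO 491, ORC2KO 466 and ORC5KO 508, which is 32.6%, 34.6%, 30.8% and 30.6% of the peaks of each line on chromosome 5. In the low stretch WT had 56 peaks, ORC2KO 93 and ORC5KO 100, while ORC1KO had 2. None of the 56 WT peaks had an ORC1KO counterpart that overlapped it by 1 bp or more (0%, 95% Wilson interval 0 to 6.42%). ORC2KO kept 37 of them (66.1%, 53.0 to 77.1%) and ORC5KO 45 (80.4%, 68.2 to 88.7%). In the rest of 5q ORC1KO kept 516 of 742 WT peaks (69.5%, 66.1 to 72.7%).

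The 2 ORC1KO peaks of the low stretch lay at 57.02 Mb beside MIER3. Before them no ORC1KO peak was listed for 6.06 Mb, and after them none for 14.6 Mb, up to 71.6 Mb. In that second gap WT had 40 peaks within the low stretch, ORC2KO 55 and ORC5KO 60. In proximal 5p the order was the other way. ORC1KO had 145 peaks there, WT 61, ORC2KO 93 and ORC5KO 93, and ORC1KO kept 50 of the 61 WT peaks (82.0%, 70.5 to 89.6%) while 95 of its 145 had no WT counterpart. Before the gap at the centromere these peaks numbered 143 in ORC1KO, 61 in WT, 88 in ORC2KO and 91 in ORC5KO cells. As a share of the chromosome 5 peaks of a line, proximal 5p held 10.2% (8.75 to 11.9%) in ORC1KO, 5.47% (4.28 to 6.97%) in WT, 6.14% (5.04 to 7.46%) in ORC2KO and 5.60% (4.60 to 6.81%) in ORC5KO cells. Neighbouring peaks are not independent, so these intervals cover sampling of single peaks only.

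The way the lists were built bears on these counts. Every listed peak had another of the same list within 26017 bp in WT, 25683 bp in ORC1KO, 21839 bp in ORC2KO and 20458 bp in ORC5KO cells, so peaks that stood alone are not in the lists. A peak can therefore leave a list when its neighbour is lost. The tables hold an origin only where WT or the knockout line had a listed peak. In the low stretch 56 of the 58 ORC1KO table origins were peaks of WT alone and 2 of ORC1KO alone. In proximal 5p, 95 of the 156 were peaks of ORC1KO alone (median 0.62), 50 of both lines (median 0.37) and 11 of WT alone (median 0.13). Among origins listed in WT, whatever the knockout line showed, the ORC1KO medians were 0.06 in distal 5p, 0.31 in proximal 5p, −0.87 in the low stretch and −0.11 in the rest of 5q. The high values were thus lower, and the order of the blocks was the same. That order is no separate support, since the blocks were drawn on these folds and 56 of the 58 low origins were WT peaks.

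The levels of a line were also compared along the chromosome without dividing by WT. At positions found in all 3 tables, the median RPM per kb of each stretch was set against that of the rest of 5q in the same line. For proximal 5p the ratio was 0.958 in WT, 1.23 in ORC1KO, 0.95 in ORC2KO and 0.948 in ORC5KO cells, over 73 positions. For the low stretch it was 0.924 in WT, 0.550 in ORC1KO, 0.858 in ORC2KO and 0.895 in ORC5KO cells, over 56 positions. For distal 5p it was 1.06, 1.23, 1.12 and 1.13 in the same order, over 290 positions. The ORC1KO ratio was the highest of the 4 lines on both parts of 5p and the lowest on the low stretch. The stretches were drawn on folds of these same ORC1KO reads, so that order follows in part from how they were drawn.

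**Figure D3:**
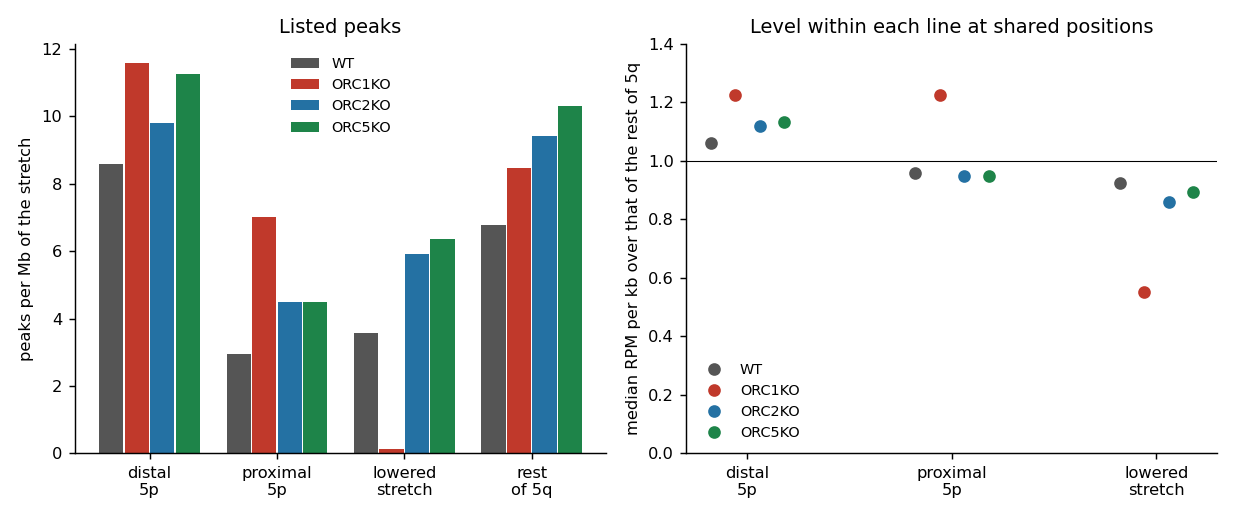
Left, listed peaks per Mb in 4 stretches of chromosome 5 for WT, ORC1KO, ORC2KO and ORC5KO cells. Right, the median RPM per kb at shared positions of 3 stretches over that of the rest of 5q in the same line. ORC1KO has 0.127 peaks per Mb in the low stretch, against 3.57 in WT.

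The origins within named genes were taken from lists of genes by place and role, with the reads of all origins that overlap a gene summed. Of 16 listed signalling, receptor and complement genes of 5p between 32 and 45 Mb, 8 held origins in the ORC1KO table. All 8 had a log2 fold above 0, with a median of 0.66, and 6 reached 1.5-fold. Of these 6, LIFR, FYB1, C6 and SLC1A3 (a glutamate transporter) were covered by no WT peak, so their origins entered the table through ORC1KO peaks alone and a high fold there is no result about the list. The 4 genes covered by a WT peak had a median of 0.48, and 2 of them reached 1.5-fold. LIFR (the receptor of leukaemia inhibitory factor) held 9 origins, with 683 WT and 1239 ORC1KO reads and a log2 fold of 0.80 (0.66 to 0.94). It was covered by no WT peak, 9 ORC1KO peaks, 6 ORC2KO peaks and 2 ORC5KO peaks. FYB1 (an adaptor of T cell signalling) had 229 and 429 reads, at 0.85 (0.61 to 1.08), and C6 (a complement component) 111 and 189 reads, at 0.71 (0.36 to 1.06). PRLR and GHR, the receptors of prolactin and growth hormone, stood at 0.66 (0.44 to 0.88) and 0.65 (0.36 to 0.95). The lowest of the 8 was GDNF (a neurotrophic factor), with 327 WT and 384 ORC1KO reads and a log2 fold of 0.17 (−0.05 to 0.39). In ORC2KO and ORC5KO cells the medians of the genes with origins were 0.02 over 5 genes and 0.08 over 6, and none reached 1.5-fold.

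Among 13 listed genes of growth and chromosome maintenance on 5p, only 3 held origins in the ORC1KO table. RICTOR (a subunit of mTOR complex 2) held 3, with 244 WT and 502 ORC1KO reads and a log2 fold of 0.98 (0.76 to 1.21), the highest of the listed genes in ORC1KO cells. No WT peak covered RICTOR, nor DROSHA of this list, nor SEMA5A, CDH12 and CDH6 of the next. In ORC2KO cells RICTOR had a log2 fold of 0.17 (−0.10 to 0.45). DROSHA (which cuts primary microRNAs) stood at 0.36 (0.06 to 0.67) and HMGCS1 (of cholesterol synthesis) at 0.27 (0.03 to 0.52). Of 12 listed large neuronal and adhesion genes of 5p, 8 held origins and all 8 were above 0 in ORC1KO cells, with a median of 0.39, or 0.28 over the 5 covered by a WT peak. SEMA5A (a semaphorin) had 363 WT and 553 ORC1KO reads, at 0.55 (0.35 to 0.74), TRIO (a guanine nucleotide exchange factor) 1264 and 1790, at 0.44 (0.34 to 0.55), and CTNND2 (delta-catenin) 1439 and 1782, at 0.25 (0.15 to 0.35). CDH6 reached 0.71 (0.46 to 0.97). In ORC2KO cells the 7 genes of this list with origins had a median of −0.01, and MYO10 (an unconventional myosin) was the one whose interval lay below 0, at −0.33 (−0.57 to −0.09).

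The genes at the short-arm end behaved otherwise. Of 13 listed, 11 held origins in the ORC1KO table, with a median of 0.18, and 3 were below 0. CLPTM1L was the highest, with 536 WT and 1025 ORC1KO reads and a log2 fold of 0.87 (0.72 to 1.03), and it was high in ORC2KO cells too, with 535 WT and 1356 ORC2KO reads, at 1.11 (0.96 to 1.26). In ORC5KO cells it stood at 0.31 (0.15 to 0.47). AHRR (the repressor of the aryl hydrocarbon receptor) was at 0.35 (0.25 to 0.45), 0.22 (0.12 to 0.31) and 0.18 (0.08 to 0.29) in ORC1KO, ORC2KO and ORC5KO cells. SLC6A19 (a neutral amino acid transporter) was at −0.15 (−0.29 to −0.01), −0.17 (−0.30 to −0.03) and −0.08 (−0.21 to 0.05).

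Of 21 listed genes of proximal 5q, 6 held origins in the ORC1KO table, and all 6 were below 0, with 5 past 1.5-fold and a median of −0.98. All 6 lie in the low stretch, which was drawn on low ORC1KO folds. Each was covered by WT peaks and by no ORC1KO peak, so their origins entered the table through WT alone. Low folds there are therefore no result about the list. MAP3K1 had 137 WT and 62 ORC1KO reads, at −1.20 (−1.66 to −0.76). IL6ST (the gp130 receptor subunit) had 87 and 43 reads, at −1.08 (−1.64 to −0.53), and KIF2A (a kinesin that depolymerises microtubules) 224 and 114, at −1.03 (−1.37 to −0.70). IPO11 (an importin) and ARL15 (a small GTPase) stood at −0.92 (−1.29 to −0.56) and −0.70 (−1.05 to −0.35). FST was the least affected, with 314 and 227 reads, at −0.53 (−0.78 to −0.28). In ORC2KO cells 10 of these genes held origins, with a median of 0.03, and in ORC5KO cells 11, with a median of 0.00. ARL15 was covered by 2 WT peaks, no ORC1KO peak, 6 ORC2KO peaks and 10 ORC5KO peaks, and PDE4D (a cAMP phosphodiesterase) by 4 ORC5KO peaks and none in the other lines.

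**Figure D4:**
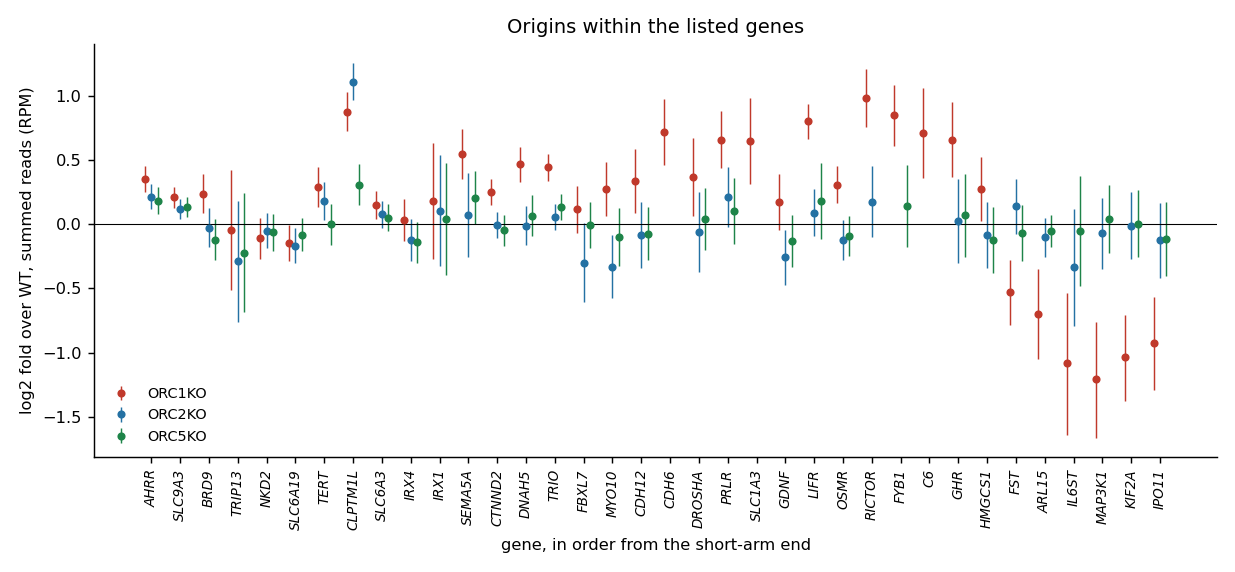
Log2 fold over WT of the summed reads of the origins within listed genes of the region, with 95% Clopper-Pearson intervals (counting error), in 3 knockout lines. Genes are in order from the short-arm end. ORC1KO values are above 0 from AHRR to HMGCS1 for all but 3 genes and below 0 from FST on, while ORC2KO and ORC5KO values lie on both sides of 0 in either part.

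A further pattern of single origins was present in the region and in the rest of the chromosome. GC skew is the excess of G over C on one strand relative to their sum, and its absolute value ignores the strand. Of the 604 origins of the ORC1KO table, 49 had an absolute GC skew of at least 0.6. Their median log2 fold was 0.86, and 34 of the 49 were up with none down. Of the 49, 23 were peaks of ORC1KO alone, as were 219 of the 555 other origins of the region. Peaks of 1 line alone enter the table through the line in which they tend to be high, so these folds are a description. In the rest of chromosome 5 the 66 origins with that skew had a median of 0.58, with 33 up. Of these 66, 43 were peaks of ORC1KO alone. In ORC2KO cells the 49 skewed origins of the region had a median of 0.61, with 26 of the 34 up calls of the region among them, and the 58 in the rest of the chromosome 0.56. In ORC5KO cells the medians were 0.44 over 39 and 0.25 over 50, and 13 of the 18 up calls were skewed. Peaks of ORC2KO alone made up 24 of its 49 skewed origins in the region and 36 of its 58 elsewhere on the chromosome. Peaks of ORC5KO alone made up 13 of its 39 and 29 of its 50. Among origins below that skew, 99 of 555 in the region (17.8%) were up in ORC1KO cells, against 29 of 1098 (2.64%) in the rest of the chromosome. In the region 8 of 501 were up in ORC2KO cells and 5 of 525 in ORC5KO cells. The region was selected on ORC1KO folds, so its ORC1KO share is high in part by that choice and is no result about skew.

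The origins up in the 2 parts of 5p in ORC1KO cells also had different values in the other lines, each of which was set against the same WT reads. Of the 71 origins up in distal 5p, 43 overlapped an origin of the ORC2KO table, where their median log2 fold was 0.61, and 37 one of the ORC5KO table, where it was 0.43. Of the 62 up in proximal 5p, 17 overlapped an origin of the ORC2KO table, with a median of 0.16, and 15 one of the ORC5KO table, with a median of 0.12. Of the 62 up in the rest of 5q, 37 overlapped an origin in each of these tables, with medians of 0.69 and 0.49. The values of distal 5p are thus not particular to it. Among all origins, up or not, 290 of 396 in distal 5p, 73 of 156 in proximal 5p and 879 of 1154 in the rest of 5q overlapped one in both other tables. Of the 46 origins down in the low stretch, 45 overlapped an origin in each of the other tables, with medians of −0.19 in ORC2KO and −0.06 in ORC5KO cells. An origin with few WT reads by chance has a higher fold in every table, so values of the 3 lines at 1 origin are not independent.

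**Figure D5:**
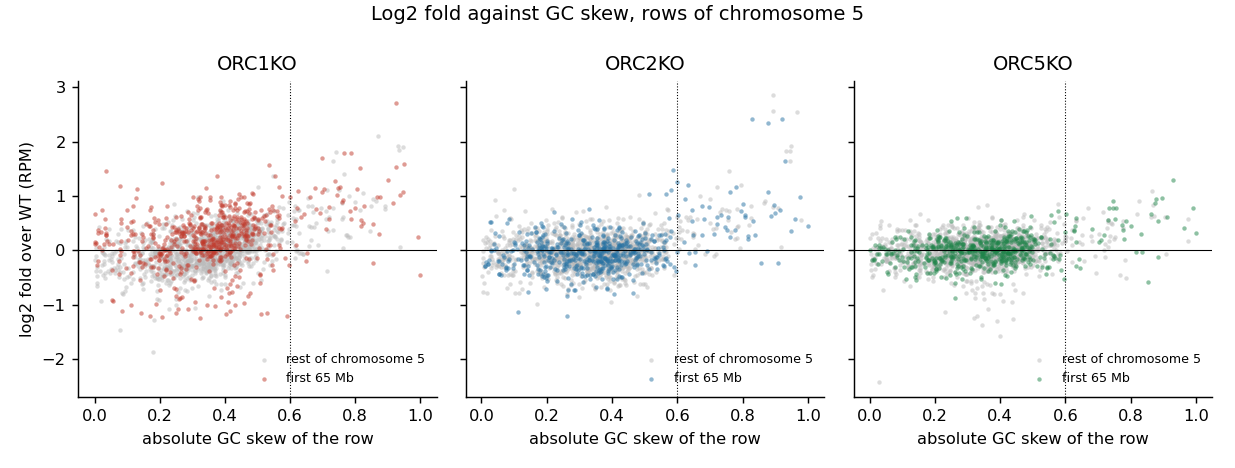
Log2 fold over WT in RPM against the absolute GC skew of each origin of chromosome 5, for 3 knockout lines, with origins of the first 65 Mb in colour and the rest in grey. The dotted line marks a skew of 0.6. Origins to its right sit mostly above 0 in the 3 lines. In ORC1KO cells the origins of the region, which was selected on these folds, lie above the rest at low skew too.

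The origins with the most extreme folds were ranked among the 413 that had at least 100 reads in the ORC1KO table and a counterpart in both other tables. The highest was the CDH6 neighbour shown above, with 44 WT and 158 ORC1KO reads and a log2 fold of 1.78 (1.29 to 2.30), against 0.86 in ORC2KO and 0.88 in ORC5KO cells. The SLC9A3 intron had 74 and 224 reads, at 1.54 (1.15 to 1.94), with 1.64 in ORC2KO and 1.30 in ORC5KO cells, and it was the highest of the ranked origins in both. In the ORC2KO table an unranked origin at chr5:1042146-1042557 was higher, with 33 WT and 207 ORC2KO reads and a log2 fold of 2.42 (1.88 to 2.99). The next were an origin 305770 bp from IRX2, at 1.29 (0.81 to 1.79), and one 2255 bp from NKD2, at 1.17 (0.79 to 1.57). The first of these was at 0.69 in ORC2KO and 0.96 in ORC5KO cells, and the second at 1.08 and 0.78. An origin without a counterpart in both other tables, at chr5:3784997-3786444, was higher still, with 36 WT and 245 ORC1KO reads and a log2 fold of 2.71 (2.20 to 3.25). Both unranked origins were named after their values were seen.

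At the low end, the SHISAL2B neighbour shown above had 77 WT and 34 ORC1KO reads, at −1.24 (−1.87 to −0.64), an exon of the gene ENSG00000288936 150 and 67, at −1.22 (−1.66 to −0.80), and a second origin beside SHISAL2B 186 and 84, at −1.21 (−1.60 to −0.83). The fourth was the MAP3K1 intron, at −1.20. In ORC2KO cells these 4 stood at −0.46, −0.04, 0.00 and −0.31, and in ORC5KO cells at −0.04, −0.06, 0.04 and −0.08. In ORC2KO cells the lowest origins of the region lay elsewhere, in distal 5p. An intron of ENSG00000286001 had 135 WT and 69 ORC2KO reads, at −1.20 (−1.64 to −0.77), and was at −0.87 in ORC1KO and −0.88 in ORC5KO cells. An exon of TRIO had 114 and 75 reads, at −0.84 (−1.28 to −0.40), and was at −0.43 and −0.60.

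The members did not differ much from the rest of the chromosome in other features. Their median GC content in the ORC1KO table was 50.6%, against 50.2%, and their median width 525 bp, against 511 bp. GC content differed between the blocks, with medians of 53.5% in distal 5p, 46.1% in proximal 5p and 47.9% in the low stretch. Introns held 52.2% of the origins and 39.6% lay between genes, against 56.0% and 32.6% in the rest of the chromosome. In the windows of 200 bases, a G-quadruplex motif (4 runs of at least 3 G, up to 7 bases apart, on either strand) was present in 138 of 604 origins (22.8%), against 227 of 1164 (19.5%) in the rest of the chromosome. Within the low stretch the ORC1KO median was −0.78 for origins under 45% GC, −0.83 from 45 to 55% and −1.08 above. By WT reads, the medians were −0.76 under 100 WT reads and −0.95 from 100 to 200. The stretch was drawn on low ORC1KO folds, so a low median in every class follows from that choice.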

How the data were processed

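The 3 tables hold read counts that the authors deposited without normalization, 1 column per line, after merging 2 replicates and joining overlapping origins of WT and one knockout line. The 4 peak lists give start and end only. Per the labels' processing notes, Trim Galore 0.6.4, Bowtie, MACS2 and bedtools were used on GRCh38, and the tool that counted reads is not given in the sources used here. Duplicate handling is not stated, so intervals cover counting error only. Totals per line and table ran from 6416892 to 8523971 reads in origins, of which 0.935% to 1.13% lay on other contigs.

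Log2 folds of RPM were computed with no pseudocount or filter on chromosomes 1 to 22, X and Y. Steps of 1 Mb needed 5 origins. Segments needed 20 origins and a drop in residual sum of squares above 10 times the log of the number of origins times a robust variance. The GC correction took off the running median over 1001 origins in order of GC content. Sequences came from hg38, genes from GENCODE release 44. The checks of the segmentation, calls and GC correction were run on simulated data.

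The region, the 99 genes of the lists and the alternatives were chosen with earlier results of these data known. The named origins are the 2 on each side of 65 Mb and of each boundary, and the highest and lowest 4 (ORC1KO) or 3 (ORC2KO, ORC5KO) among those with 100 reads and a counterpart in both other tables. Of these, the text gives the ones its results turn on. With replicates merged, no test between lines was possible. Intervals were computed with scipy 1.17.1, tables handled with pandas 2.3.3, sequence read with pysam 0.24.0 and plots drawn with matplotlib 3.10.9 under Python 3.11.15. TMM factors came from edgeR 4.0.16 (R 4.3.3).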

Additional observations from a re-analysis of the deposited data

Results flagged for a closer look

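In proximal 5p the median log2 fold had opposite signs in ORC1KO and in the other lines at the same 73 positions. It was 0.35 in ORC1KO cells, −0.14 in ORC2KO cells and −0.08 in ORC5KO cells. The median difference of ORC1KO was 0.48 from ORC2KO and 0.45 from ORC5KO. The tables merge the replicates, so the difference was not tested. At 879 shared positions of the rest of 5q the medians were −0.06, −0.08 and −0.05 in the same order. A median below 0 at shared positions is thus not particular to proximal 5p. Over all origins of proximal 5p in their own tables, ORC2KO and ORC5KO stood at −0.02 and −0.01. The summed ORC1KO reads of proximal 5p and its ORC1KO peak count were above those of WT, as given earlier. These are no separate support, since the stretch was drawn on the same reads and 95 of its 156 origins were peaks of ORC1KO alone.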

How the results depend on the processing

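No paired analysis was possible because the tables merge the replicates of a line into 1 column, and no replicate could be left out for the same reason. For 44 results, 201 alternative values were computed, of which 144 stayed within set limits. For a median or a difference of medians the limit was a 95% interval of the median over origins. That interval takes neighbouring origins as independent. The limit was 1.5 times for a count, a fixed tolerance for the position or median of a segment, and the Wilson interval for a share of peaks. For a list of genes it was the quartiles. The low segment kept its edges at 50.3 and 69.2 Mb under all 4 alternatives run on it, with medians of −0.91 to −0.83. The boundary at 29.4 Mb was kept under 3 and not placed after GC correction.

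The ORC1KO median log2 fold of the region was 0.13 over origins in peaks of both lines, 0.054 over origins in WT peaks (chosen after seeing the data) and 0.30 on the short arm alone, where the differences from the rest were 0.17, 0.17 and 0.30. Up and down calls in ORC1KO cells were 62 and 10 with at least 200 reads, 22 and 0 in peaks of both lines, 32 and 17 at 2-fold, 259 and 66 at the lower threshold tried, and 51 and 18 with the median of each stretch taken off (chosen after seeing the data). On the short arm alone 3 were down. Over genes covered by a WT peak (chosen after seeing the data), the medians of the receptor and growth lists were 0.48 and 0.27, against 0.66 and 0.36. ORC1KO steps above were 11 at 2 Mb and 5 at a limit of 0.5.

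The ORC2KO median turned from −0.03 to 0.01 with both median-of-ratios and TMM factors (0.0062 and 0.0054), and was −0.11 in WT peaks. Its up calls in proximal 5p were 1 in place of 4 before the gap at the centromere (chosen after seeing the data). Its calls in the region were 21 and 3 with 200 reads, 9 and 1 in shared peaks, 13 and 2 at 2-fold, and 80 and 81 at the lower threshold. Its steps beyond the limit were 0 above and 1 below at 0.5 Mb and at 2 Mb, 0 above with summed reads, and 0 and 0 at a limit of 0.5. The ORC5KO median was −0.021 with 200 reads, −0.049 in shared peaks and −0.059 in WT peaks, with a difference from the rest of 0.020. Its calls were 11 and 2, 5 and 0, 1 and 0, and 58 and 44 in the same order. Peaks at least as wide as the list median numbered 177 in WT, 256 in ORC1KO, 244 in ORC2KO and 251 in ORC5KO cells, and ORC5KO then kept 80.2% of WT peaks. The cause of these moves was not tested. Single origins near 1.5-fold are not resolved at a median of 104 WT reads.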
